A study of Oryctolagus cuniculus with 6 samples.

Results

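The 84 genes described here are the cell cycle genes of a rabbit tissue RNA-seq table. They are the rows of the deposited table whose pathway annotation names the KEGG cell cycle pathway and does not also name the cytokine receptor pathway, 84 of 16367 genes in all. The second condition set aside 2 growth factor genes, TGFB2 and TGFB3. The tissue is perichondral by the series title (perichondrium is the sheath of cartilage) and subcutaneous by the labels. The 3 test samples and the 3 control samples are known only by those titles: the labels give no treatment, strain, age or sex, and do not state how many animals were used. Each p-value below therefore measures the spread between these samples, which may be technical.

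A dividing cell passes through G1, when cyclin-dependent kinases paired with cyclins lift the block that retinoblastoma proteins place on E2F transcription factors. It then copies its DNA in S phase from origins loaded with the MCM helicase, and separates the copies in M phase after cyclin B and CDK1 are switched on. Cohesin rings hold the sister chromatids together until a ubiquitin ligase, the anaphase-promoting complex, releases the protease that opens them. Checkpoints stop the cycle when DNA is damaged or chromosomes are not attached. In adult connective tissue most cells are outside the cycle, and many of these proteins also have work in resting cells, such as signalling, transcription and the folding of chromatin by cohesin.

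Few of these genes differed between the test and control samples, and those that did moved by modest amounts, with 2 exceptions. The stress-response gene GADD45G rose 3.26-fold and the phosphatase gene CDC14B fell 2.5-fold in the test samples. Of the 82 genes with enough counts to be tested, 3 were called higher (GADD45G, GADD45A and MYC) and 7 lower (CDC14B, STAG2, MCM3, SMC3, RAD21, CREBBP and YWHAZ), at an adjusted p under 0.05 in edgeR's quasi-likelihood test over all 12740 genes tested. That is 3.66% called higher, where 6.84% of all tested genes were, and 8.54% called lower, where 6.15% were, and both shares lie near that background.

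The genes as a body lay slightly lower in the test samples. Their median log2 fold change (test over control) was -0.17, against -0.00 over all tested genes, and 56 of the 82, or 68.3%, were below 0, against 50.5% of all tested genes. In 21 genes (25.6%) every test library was below every control library, which held for 16.6% of all tested genes. The reverse, every test library above every control library, held in 9 genes (11%), against 18.4% of all tested genes and 35% for both directions together. The middle of the distribution ran from -0.37 to 0.03 between its quartiles. After a correction for gene span, described below, the median was -0.09, against -0.02 over all genes in that fit. Summed over the 84 genes, levels in CPM (counts scaled to each library's total after TMM normalization) were 4670, 4499 and 4624 in test replicates 1 to 3 and 4956, 5159 and 4933 in control replicates 1 to 3, so the groups did not overlap. Abundant genes weigh most in these sums. The 6 genes of the YWHA family alone held 1497 to 1553 CPM in test and 1616 to 1745 CPM in control libraries. CPM is not divided by transcript length and is used here to compare libraries, not genes. In tissue RNA, fewer cells of a type and less RNA per cell cannot be told apart.

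**Figure D1:**
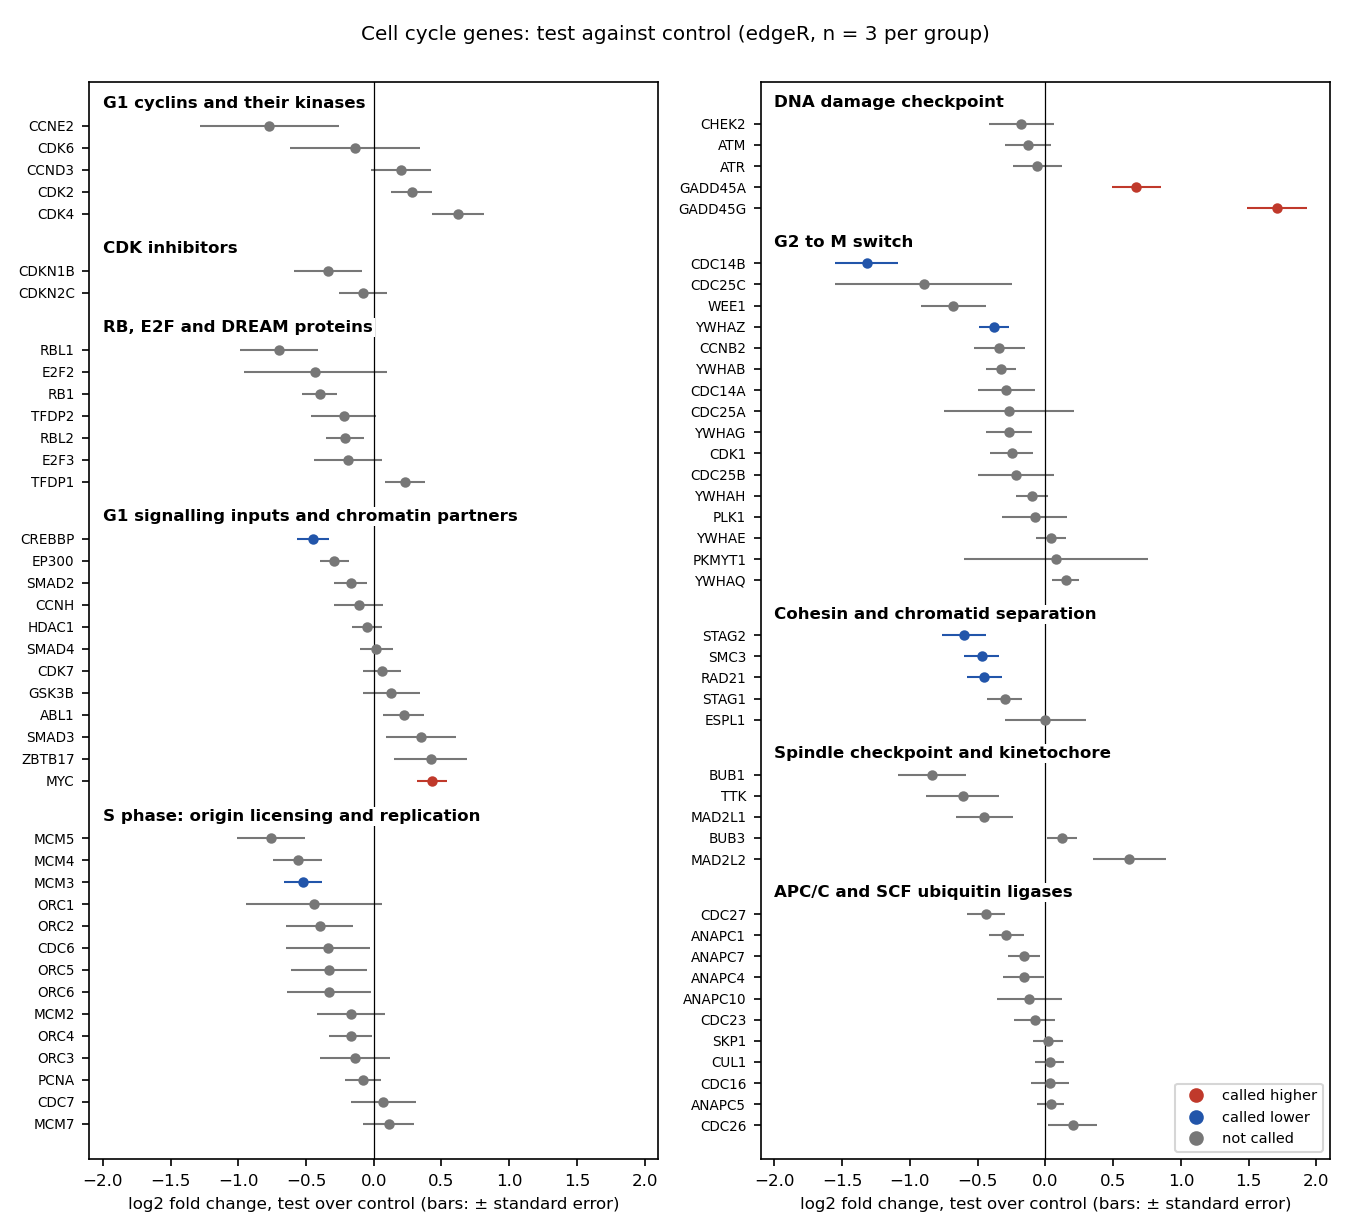
Log2 fold change of test over control (horizontal axis) for the 82 tested cell cycle genes, arranged by role, with bars for the standard error from the edgeR fit over 3 libraries per group. Points in red were called higher (3), points in blue called lower (7), and grey points were not called, with GADD45G at 1.71 and CDC14B at -1.32 as the extremes.

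Total counts were 17820537 to 21199562 in the test libraries and 21923246 to 23105606 in the control libraries. Markers of connective tissue were abundant in every library. The 5 fibroblast markers found (COL1A1, COL1A2, COL3A1, DCN and LUM) summed to 17415 to 20568 CPM in test and 29150 to 41547 CPM in control libraries. All but LUM were called lower in the test samples. The 5 chondrocyte markers found (COL2A1, ACAN, SOX9, COL9A1 and MATN4) summed to 2608 to 3816 CPM in test and 1072 to 2703 CPM in control libraries. Of 3 adipocyte markers found, LEP had no count in any library, and the sum was 44.1 to 52.9 CPM in test and 76.9 to 163 CPM in control libraries. The 5 skeletal muscle markers found, all called higher, summed to 43.3 to 54.3 CPM in test and 1.12 to 2.98 CPM in control libraries. The 6 macrophage markers summed to 1669 to 1899 CPM in test and 2065 to 2223 CPM in control libraries. Of these, 2 were called higher (CD68 and CD14) and 1 lower (CD163). The 4 keratinocyte markers found summed to 6.05 to 6.73 CPM in test and 2.02 to 3.06 CPM in control libraries.

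The genes that commit a cell to division in G1 gave no call among the cyclins and kinases analysed, which did not include CCND1 and CCNE1. CDK4, the kinase partner of D cyclins, stood at 64.6, 61.7 and 72.5 CPM in test replicates 1 to 3 and at 51.6, 30.1 and 47.9 CPM in control replicates 1 to 3. Every test library was above every control library, but its log2 fold change of 0.62 ± 0.19 (standard error) missed the threshold (edgeR adjusted p = 0.0595), and it passed in 5 of 16 alternative fits, with adjusted p between 0.0201 (without control replicate 1, log2 fold change 0.77) and 0.393 over all of them. CDK2, the partner of cyclins E and A, had a log2 fold change of 0.28 ± 0.15 (adjusted p = 0.253), with 30.4, 36.3 and 36.2 CPM in test and 30.7, 27.9 and 25.9 CPM in control libraries, which overlap. CCNE2, cyclin E2, was low and scattered at 2.77, 5.33 and 1.15 CPM in test and 5.78, 4.13 and 5.86 CPM in control libraries (log2 fold change -0.77 ± 0.51, adjusted p = 0.355). Without test replicate 2, the highest of the test libraries, the log2 fold change of CCNE2 was -1.42 (adjusted p = 0.154). CDK6, which like CDK4 binds D cyclins, and CCND3, cyclin D3, had log2 fold changes of -0.14 and 0.20, and their groups overlapped.

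Inhibitors of the cyclin-dependent kinases were measured thinly. CDKN1B, the p27 inhibitor, ranged from 8.32 to 14.7 CPM in test and from 12.6 to 15 CPM in control libraries (log2 fold change -0.34 ± 0.25, edgeR adjusted p = 0.404). CDKN2C, which binds CDK4 and CDK6, had a log2 fold change of -0.08 ± 0.18 (adjusted p = 0.802). CDKN2B, the p15 inhibitor induced by TGF-beta, had too few counts to be tested in the reported fit. It had 1, 12 and 8 counts in test and 1, 0 and 0 counts in control libraries. In the alternative fit without a filter on low counts, CDKN2B was not called. The ratio of its depth-scaled counts, 21 in the test group and 1 in the control group, was 24.7, with an exact 95% interval of 3.97 to 1020 that covers counting error only. Almost all of the CDKN2B counts lay in test replicates 2 and 3, while test replicate 1 had as many as control replicate 1.

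The retinoblastoma and E2F proteins, which hold back or drive the genes of S phase, gave no call either, although 6 of 7 had a log2 fold change below 0. RB1, the retinoblastoma protein itself, stood at 54.5, 53.1 and 51.8 CPM in test and 68.8, 78.5 and 62.8 CPM in control libraries. These groups did not overlap, and the log2 fold change was -0.40 ± 0.13 (edgeR adjusted p = 0.0634). RBL1, the related p107 protein that cells make when they enter S phase, had 9.17, 10.7 and 5.87 CPM in test and 18.3, 11.2 and 12.3 CPM in control libraries, again without overlap (log2 fold change -0.70 ± 0.29, adjusted p = 0.136). RBL2, the p130 protein of resting cells, had a log2 fold change of -0.21, and its groups overlapped. The activator E2F2 reached 8.39 CPM in control replicate 1 and was 2.16 and 2.71 CPM in the other control libraries, against 2.57 to 3.94 CPM in the test libraries. TFDP1, the DNA-binding partner of E2F proteins, was higher in every test library than in any control library by a small amount (log2 fold change 0.23 ± 0.15, adjusted p = 0.333).

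Among the signalling inputs and chromatin partners of G1, MYC rose and CREBBP fell. MYC (ENSOCUG00000014289), the growth-promoting transcription factor, had 82, 79.9 and 80.2 CPM in test and 63.1, 59.1 and 57.9 CPM in control libraries. The libraries of each group lay close together and apart from the other group, and MYC rose 1.34-fold (log2 fold change 0.43 ± 0.11, edgeR adjusted p = 0.033). CREBBP (ENSOCUG00000004458), a histone acetyltransferase that assists many transcription factors, had 86.5, 97.6 and 98.1 CPM in test and 127, 139 and 119 CPM in control libraries. It fell by 0.45 on the log2 scale (standard error 0.12, adjusted p = 0.0331), with no overlap. Its close relative EP300 stood at 114 to 123 CPM in test and 134 to 156 CPM in control libraries, also without overlap, and did not pass (log2 fold change -0.29 ± 0.11, adjusted p = 0.116). Leaving out any of the test libraries ended the MYC call (adjusted p of 0.111 to 0.122) and the CREBBP call (0.104 to 0.145), as did leaving out control replicate 3 (0.105 for MYC and 0.0652 for CREBBP). The other 9 genes of this role, among them the TGF-beta signal carriers SMAD2, SMAD3 and SMAD4, the kinases GSK3B, ABL1 and CDK7 and the deacetylase HDAC1, had log2 fold changes from -0.17 to 0.42, and all but ABL1 overlapped between groups.

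Of 14 S phase genes 1 fell (7.14%, where 6.15% of all tested genes did). Log2 fold changes were below 0 in 12 of the 14 (85.7%, where 50.5% of all tested genes were), with a median of -0.33. In 3 genes (21.4%, where 16.6% of all tested genes did so), all of the MCM helicase that unwinds DNA at origins, every test library was lower than any control library. MCM3 (ENSOCUG00000004273) had 41, 39.2 and 39.6 CPM in test and 64.7, 56.8 and 50.1 CPM in control libraries, and fell by 0.52 on the log2 scale (standard error 0.14, edgeR adjusted p = 0.0346). MCM4 had 31, 24.2 and 28 CPM in test and 49.3, 34.7 and 38.4 CPM in control libraries (log2 fold change -0.56 ± 0.18, adjusted p = 0.0643). MCM5 had 11.5, 10.2 and 11.2 CPM in test and 25.9, 14.2 and 15.4 CPM in control libraries (log2 fold change -0.76 ± 0.25, adjusted p = 0.0746). Of the other subunits measured, MCM2 had a log2 fold change of -0.17 and MCM7 of 0.11, and both overlapped between groups. The MCM3 call held without control replicate 2 and ended without any other single library (adjusted p from 0.0514 to 0.131).

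All 6 subunits of the origin recognition complex, which marks the sites where replication starts, had log2 fold changes below 0, from -0.44 (ORC1) to -0.14 (ORC3). Their groups overlapped in every case, and none was called. PCNA, the clamp that tethers DNA polymerase, had 147, 114 and 121 CPM in test and 150, 131 and 124 CPM in control libraries (log2 fold change -0.08 ± 0.13, edgeR adjusted p = 0.727). CDC6, which loads the helicase, and CDC7, the kinase that fires it, had log2 fold changes of -0.34 and 0.07.

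The median coefficient of variation of the S phase genes was 13.8% among test libraries and 27.5% among control libraries, where over all tested genes it was 13.8% and 20.7%, so a wider spread in control was a feature of the whole table. The 5 MCM genes summed to 174, 141 and 157 CPM in test and 242, 163 and 181 CPM in control libraries. Control replicate 1 was the highest of the control libraries in 8 of the 14 S phase genes, and in 4622 of all 12740 tested genes. The same library held the most of the 5 B and plasma cell markers found, of which 3 fell, with sums of 117 to 261 CPM in test libraries and 1273, 530 and 523 CPM in control replicates 1 to 3. The 2 T cell markers found summed to 51.7 to 77.7 CPM in test libraries and 133, 73.2 and 58.9 CPM in control replicates 1 to 3. Control replicate 1 was also the highest control library in all 5 endothelial markers (sums of 641 to 723 CPM in test libraries and 1199, 728 and 964 CPM in control replicates 1 to 3), of which VWF fell. The part of lymphocytes or endothelium in the S phase values was not tested. Without control replicate 1 the log2 fold change turned to 0.05 for MCM2 and 0.01 for PCNA, and that of MCM3 was -0.41 (adjusted p = 0.0662).

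**Figure D2:**
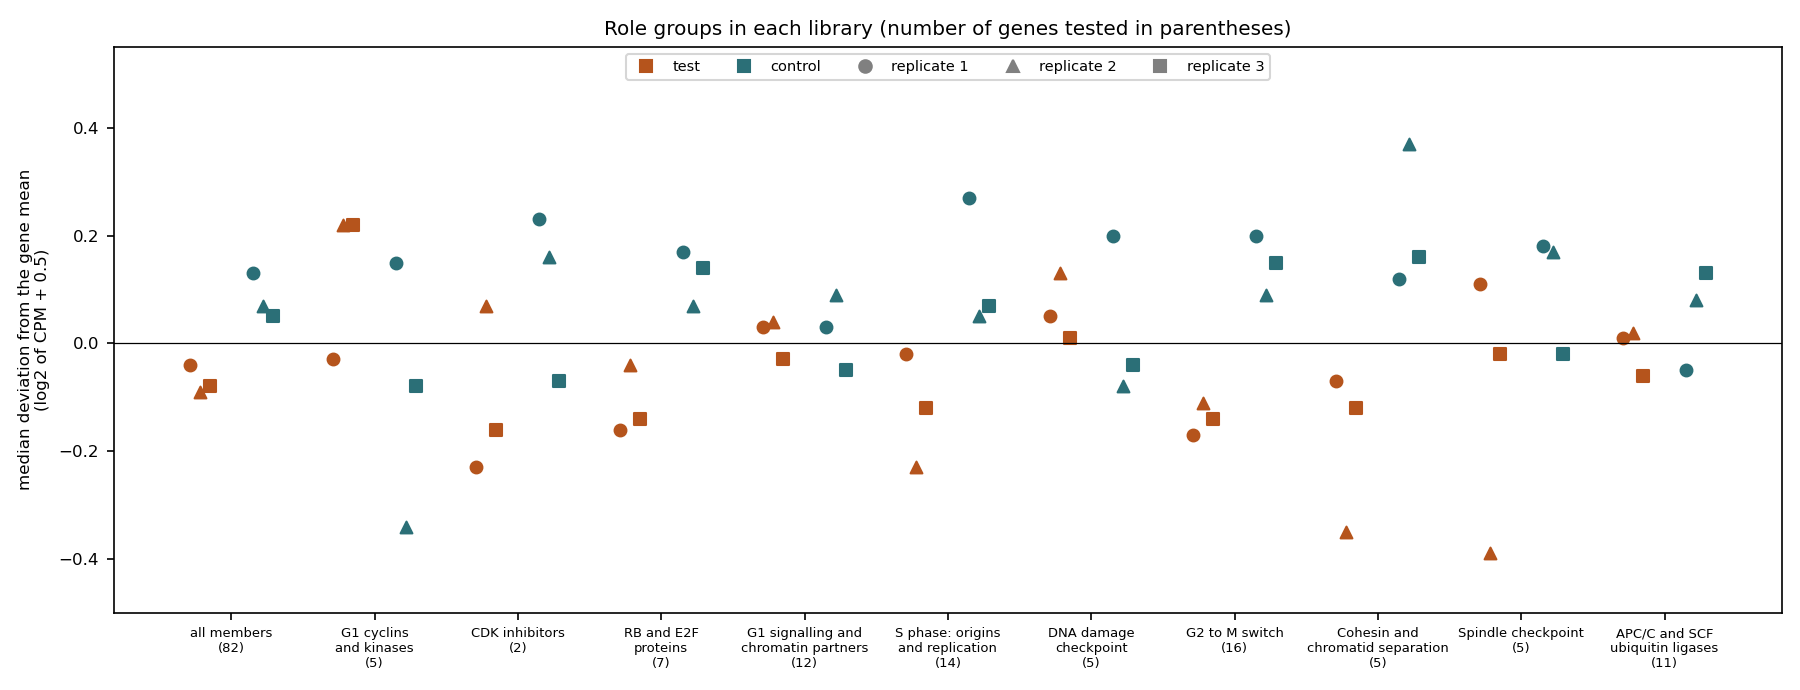
Median deviation of the tested genes of each role from their own mean over the 6 libraries (vertical axis, log2 of CPM + 0.5), 1 symbol per library, with test libraries left of control libraries. Over all 82 genes the test libraries sat at -0.09 to -0.04 and the control libraries at 0.05 to 0.13, and in S phase genes control replicate 1 stood highest at 0.27.

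The largest rise was in the DNA damage and stress genes of the GADD45 family, small proteins that bind PCNA and cyclin B and CDK1 complexes and are induced by stress and by growth arrest. GADD45G (ENSOCUG00000013296) had 33, 33.9 and 46.8 CPM in test and 10.9, 9.54 and 14.3 CPM in control libraries. The test libraries lay far above the control libraries, and GADD45G rose 3.26-fold (log2 fold change 1.71 ± 0.22, edgeR adjusted p = 0.0015). GADD45A (ENSOCUG00000008954), induced by DNA damage, had 60.9, 80.6 and 84.2 CPM in test and 37.5, 56 and 48.7 CPM in control libraries. It rose 1.59-fold (log2 fold change 0.67 ± 0.18, adjusted p = 0.0347), and the lowest test value lay just above the highest control value. The GADD45A call ended without test replicate 2, test replicate 3 or control replicate 3 (adjusted p = 0.135, 0.146 and 0.0925), while GADD45G stayed called without any single library. The kinases of the DNA damage response, ATM, ATR and CHEK2, had log2 fold changes of -0.13 (standard error 0.17), -0.06 (0.18) and -0.18 (0.24), and their groups overlapped.

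**Figure D3:**
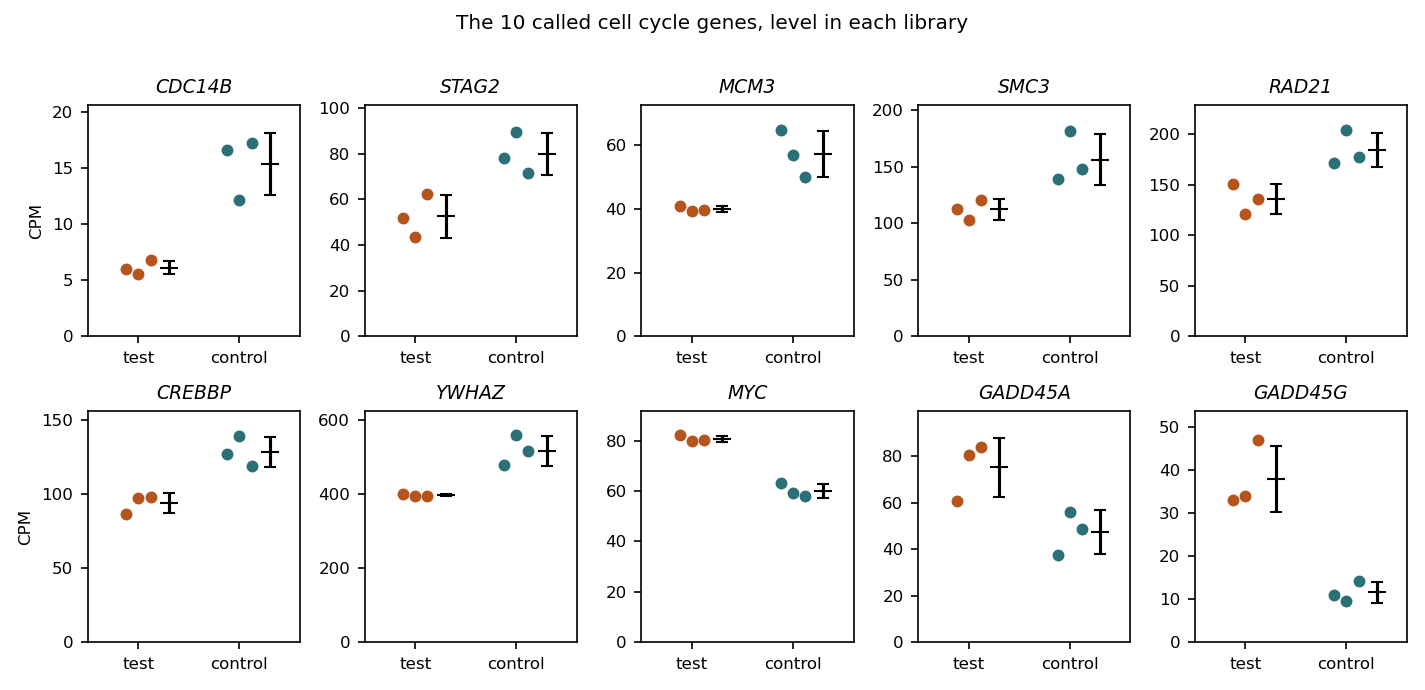
Level of the 10 called cell cycle genes in CPM (vertical axis, from 0), with 1 point per library, test left of control, and the mean with its standard deviation beside each group (n = 3). In none of the 10 do the groups overlap, but these genes were chosen by their calls in the same libraries. Of all tested genes, 35% do not overlap. In GADD45G the test libraries lie at 33 to 46.8 CPM against 9.54 to 14.3 CPM in the control libraries.

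The switch into mitosis was represented by 16 genes, of which 2 fell (12.5%, where 6.15% of all tested genes did) and 13 had log2 fold changes below 0 (81.2%, where 50.5% of all tested genes did). CDC14B (ENSOCUG00000005332), a phosphatase that reverses the work of cyclin-dependent kinases and acts in the G2 checkpoint in human cells, had 6.05, 5.58 and 6.78 CPM in test and 16.6, 12.2 and 17.3 CPM in control libraries. Its highest test library lay well below its lowest control library, and it fell by 1.32 on the log2 scale (standard error 0.23, edgeR adjusted p = 0.00711). This was the largest fall among the 82 tested genes, and it stayed called without any single library. The paralog CDC14A had a log2 fold change of -0.29 ± 0.21 (adjusted p = 0.404), and its groups overlapped.

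The genes of the core mitotic engine that were analysed showed no called difference. CCNB1, CCNA2 and CDC20 were not among them. CDK1, the mitotic kinase, had 30, 29.5 and 24.2 CPM in test and 29.2, 34.2 and 36.2 CPM in control libraries (log2 fold change -0.25 ± 0.16, edgeR adjusted p = 0.343). CCNB2, its cyclin partner, had 17.3, 20.8 and 13.8 CPM in test and 23.2, 21.1 and 21.7 CPM in control libraries, narrowly without overlap (log2 fold change -0.34 ± 0.19, adjusted p = 0.269). WEE1, which restrains CDK1, was below every control library in every test library, at 5.77 to 8.15 CPM against 10.3 to 13.1 CPM (log2 fold change -0.68 ± 0.24, adjusted p = 0.094). The phosphatases that activate CDK1, CDC25A, CDC25B and CDC25C, had log2 fold changes of -0.27, -0.22 and -0.90 with standard errors of 0.48, 0.28 and 0.65, and all overlapped. PLK1, the polo kinase, had a log2 fold change of -0.08 ± 0.24, and 0.16 without control replicate 1.

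Among the adaptor proteins of the YWHA family, which bind phosphorylated partners such as CDC25, 1 of 6 was called. That is 16.7%, near the 13% of all tested genes called in either direction. YWHAZ (ENSOCUG00000000734) had 401, 395 and 396 CPM in test and 478, 559 and 516 CPM in control libraries, and fell by 0.38 on the log2 scale (standard error 0.11, edgeR adjusted p = 0.0413). YWHAB was also lower in every test library, at 199 to 219 CPM in test and 246 to 280 CPM in control libraries (log2 fold change -0.33 ± 0.11, adjusted p = 0.0678). YWHAQ lay the other way, at 247 to 269 CPM in test and 227 to 234 CPM in control libraries (log2 fold change 0.15 ± 0.10, adjusted p = 0.382), and YWHAE, YWHAG and YWHAH overlapped between groups. Reads may be shared between these similar paralogs, so their single values are uncertain. The YWHAZ call was lost when any of the test libraries was left out (adjusted p between 0.134 and 0.153) and without control replicate 3 (0.112).

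Of the 4 core subunits of cohesin that were tested, 3 fell, where 6.15% of all tested genes did. All 4 were lower in every test library than in any control library, which held for 16.6% of all tested genes. STAG2 (ENSOCUG00000009879), a HEAT-repeat subunit that docks on the ring, had 51.7, 43.5 and 62.6 CPM in test and 78.2, 89.8 and 71.7 CPM in control libraries, a fall of 0.60 on the log2 scale (standard error 0.16, edgeR adjusted p = 0.0327). SMC3 (ENSOCUG00000011142), an ATPase arm of the ring, had 113, 103 and 121 CPM in test and 139, 182 and 148 CPM in control libraries and fell by 0.47 (standard error 0.13, adjusted p = 0.0421). RAD21 (ENSOCUG00000002581), the subunit cut at anaphase, had 151, 121 and 136 CPM in test and 172, 204 and 178 CPM in control libraries and fell by 0.45 (standard error 0.13, adjusted p = 0.0431). STAG1, the alternative to STAG2, did not pass (log2 fold change -0.30 ± 0.13, adjusted p = 0.149).

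Test replicate 2 was the lowest test library and control replicate 2 the highest control library in all 4 cohesin subunits. Of all 12740 tested genes, the first held for 4112 and the second for 4576. The sums of the 4 subunits were 374, 320 and 374 CPM in test and 449, 551 and 467 CPM in control libraries. The 3 calls ended without test replicate 1, test replicate 2, control replicate 2 or control replicate 3 (adjusted p from 0.0562 to 0.183), and those of SMC3 and RAD21 also without test replicate 3 (0.106 and 0.147). ESPL1, the separase that cuts RAD21, had a log2 fold change of 0.00 ± 0.30. SMC1B, a cohesin subunit of germ cells, had 0 counts in all 6 libraries, which allows up to 0.0514 CPM in the test group and 0.0438 CPM in the control group (3 counts over each group).

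Regulators of cohesin outside the pathway annotation were examined beside it, chosen after their values were seen. WAPL, which releases cohesin from DNA, fell by 0.59 on the log2 scale, and the acetyltransferases ESCO1 and ESCO2, which lock it in place, fell by 0.56 and 1.18 (edgeR adjusted p = 0.0141, 0.0413 and 0.0186). ESCO2 had 6, 5.13 and 4.71 CPM in test and 13.3, 13.5 and 9.1 CPM in control libraries. NIPBL, the cohesin loader, had a log2 fold change of -0.41 ± 0.13 (adjusted p = 0.0614), while its partner MAU2 had one of 0.37 (adjusted p = 0.238). Others of the same list were not called either, with log2 fold changes of -0.78 (SGO1), -0.55 (PDS5B), -0.24 (PDS5A), -0.17 (CDCA5), 0.07 (REC8) and 2.08 (STAG3, adjusted p = 0.131). STAG3, a germ cell subunit, was low, at 0.769 to 1.86 CPM in test and 0.165 to 0.621 CPM in control libraries. WAPL was not called without test replicate 1 or 3 (adjusted p = 0.078 and 0.0852), ESCO2 not without any single test library (0.0561 to 0.0852), and ESCO1, among the fits that left out a library, was called only without control replicate 1. ESCO1 was not called after a correction for gene span either (log2 fold change -0.42, adjusted p = 0.107).

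The spindle checkpoint, which delays anaphase until chromosomes are attached, gave no call among 5 genes, and its members lay on both sides. BUB1, a checkpoint kinase at kinetochores, had 13.3, 8.5 and 16.5 CPM in test and 25.9, 19.3 and 23.3 CPM in control libraries. The groups did not overlap, and the log2 fold change of -0.84 ± 0.25 just missed the threshold (edgeR adjusted p = 0.0521). Of 16 alternative fits BUB1 passed in 8, with adjusted p from 0.0156 to 0.156 over all of them. TTK, the kinase that starts the checkpoint, and MAD2L1, which holds the anaphase-promoting complex in check, were also below every control library, with log2 fold changes of -0.61 ± 0.27 and -0.45 ± 0.21 (adjusted p = 0.173 and 0.187). BUB3 and MAD2L2, a protein of translesion DNA synthesis as well, were above every control library, with log2 fold changes of 0.12 ± 0.11 and 0.62 ± 0.27 (adjusted p = 0.524 and 0.16).

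Subunits of the ubiquitin ligases that end each phase differed little. None of 11 was called, the median log2 fold change was -0.08, and the range was -0.44 to 0.20. CDC27, a subunit of the anaphase-promoting complex that binds its activators, was the farthest from 0, with 59.4, 58.8 and 59.6 CPM in test and 70.1, 95.3 and 76.3 CPM in control libraries (edgeR adjusted p = 0.0598). Its test libraries were nearly identical while its control libraries spread, and it passed in 3 of 16 alternative fits, with adjusted p between 0.0221 (without control replicate 1, log2 fold change -0.52) and 0.206 over all of them. ANAPC1, the scaffold, also did not overlap, at 45.4 to 56.2 CPM in test and 57.4 to 62.2 CPM in control libraries (log2 fold change -0.29 ± 0.13, adjusted p = 0.174). SKP1 and CUL1, shared parts of the SCF ligases, had log2 fold changes of 0.02 and 0.03, each with a standard error of 0.11.

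Proliferation genes that the pathway annotation does not list were also examined. Of a list of 40 such genes, 28 were found and tested outside the 84, of which 6 fell and 1 rose, or 21.4% and 3.57%, where 6.15% and 6.84% of all tested genes did, with a median log2 fold change of -0.53. Control replicate 1 was the highest control library in 16 of the 28, and in 4622 of all 12740 tested genes. The sums of the 28 genes were 540, 448 and 452 CPM in test and 736, 645 and 627 CPM in control replicates 1 to 3. The part of lymphocytes or endothelium in these values was not tested. TOP2A, the topoisomerase of dividing cells, had 52.7, 47.6 and 47.5 CPM in test and 95.1, 67.4 and 69.5 CPM in control libraries and fell by 0.65 on the log2 scale (standard error 0.15, edgeR adjusted p = 0.0227). KIF11 and KIF23, motors of the spindle and of cell separation, fell by 1.07 and 0.92 (adjusted p = 0.00983 and 0.021). CDCA7, a MYC-responsive chromatin factor, rose 3.24-fold, with 38.5, 23.4 and 37.8 CPM in test and 10.3, 7.98 and 12.4 CPM in control libraries (adjusted p = 0.00295), and stayed called without any single library. The falls of TOP2A, KIF11 and KIF23 were not called without test replicate 3 (adjusted p = 0.106, 0.0609 and 0.0784). TOP2A and KIF23 were not called without test replicate 2 (0.1 and 0.0859), and TOP2A and KIF11 not without test replicate 1 (0.0722 and 0.0525). The other genes that fell, ANLN, ECT2 and HELLS, were not called after a correction for gene span (adjusted p = 0.0533, 0.0629 and 0.0618), nor without test replicate 2 or 3 (0.102 to 0.148). ECT2 and HELLS were also not called without test replicate 1 (0.0627 and 0.122) or control replicate 1 (0.0597 and 0.0825), ECT2 and ANLN not without control replicate 3 (0.0611 and 0.0667), and ANLN not without control replicate 2 (0.0636).

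A further 49 genes of the role lists were in the table but not annotated to the pathway, the 2 growth factors set aside among them. Of these 7 fell and 1 rose, or 14.3% and 2.04%, where 6.15% and 6.84% of all tested genes did, with a median log2 fold change of -0.24. Besides the cohesin regulators, the genes that fell were KNL1 and NDC80, which tie chromosomes to the spindle, PPP2R1B, a scaffold of a phosphatase that opposes mitotic kinases, and TEX14. KNL1 had 4.47, 5.18 and 6.59 CPM in test and 14.8, 13.3 and 10.7 CPM in control libraries and fell by 1.26 on the log2 scale (edgeR adjusted p = 0.0135), but was not called without test replicate 1 or 2 (0.0634 and 0.0666). The NDC80 and PPP2R1B calls were lost without each test library and without control replicate 3 (adjusted p between 0.06 and 0.147), and that of TEX14 without each of the 6 libraries (0.058 to 0.165). The gene that rose was TGFB3 (log2 fold change 0.80 ± 0.24, adjusted p = 0.0493), with 61.1, 54 and 63.1 CPM in test and 20.6, 41.7 and 39.9 CPM in control libraries. The TGFB3 call was lost without each test library and without control replicate 3 (adjusted p between 0.0808 and 0.157). After a correction for gene span TEX14, PPP2R1B and TGFB3 were not called (adjusted p = 0.14, 0.0512 and 0.0581). These names were chosen after their values were seen.

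Gene length moved with the comparison. Over the 8880 tested genes with a genomic span, divided by span into sets of 2220, the median log2 fold change was 0.27 in the set with the shortest spans and -0.22 in the set with the longest. Among cell cycle genes it was 0.12 in the shortest set (15 genes), -0.23 and -0.29 in the middle sets (26 and 21 genes) and -0.14 in the longest (20 genes). The 3 genes that rose all have short spans, of 1591 bases for GADD45G, 3206 for GADD45A and 5364 for MYC, while the 7 that fell span 20761 bases (MCM3) to 164977 (STAG2). Whether RNA quality had a part in this was not tested. Once each library was corrected for its trend with span, MYC had a log2 fold change of 0.11 (adjusted p = 0.582) and GADD45A of 0.24 (0.51), and both calls ended. The calls of CREBBP (-0.26), STAG2 (-0.40), SMC3 (-0.38) and RAD21 (-0.40) ended too (adjusted p = 0.161, 0.103, 0.0797 and 0.0634). YWHAZ was not called in the corrected fit (-0.38, adjusted p = 0.0623), nor over the same genes without the correction (-0.35, 0.0576). GADD45G (1.19), CDC14B (-1.16) and MCM3 (-0.57) stayed called (adjusted p = 0.00727, 0.0164 and 0.0241), and MCM4 joined them (-0.60, 0.0435).

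**Figure D4:**
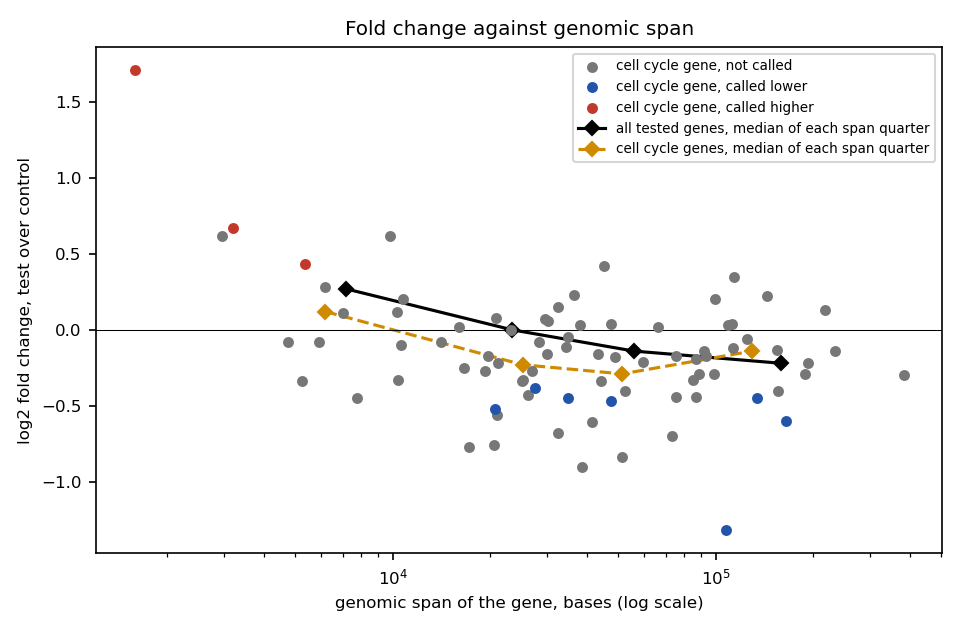
Log2 fold change of test over control (vertical axis) against the genomic span of the gene in bases (horizontal axis, log scale) for the 82 tested cell cycle genes, with diamonds for the median of each set of genes of like span. The black line, over all tested genes with a span, lies at 0.27 for the shortest set and -0.22 for the longest, and the 3 genes called higher lie at the short end.

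Some called genes share annotations outside this pathway. Over all tested genes 13% were called in either direction. The counts below describe few genes per annotation and were not tested as sets. Of the 13 tested members also annotated to FoxO signalling, GADD45A and GADD45G rose and CREBBP fell, with a median log2 fold change of -0.13. MCM3 was the called one among the 6 members that are also annotated to DNA replication. Among the 11 members in TGF-beta signalling, 10 were tested, and CREBBP and MYC were the called ones. None of the 20 members in progesterone-mediated oocyte maturation and none of the 11 in ubiquitin-mediated proteolysis was called. Their median log2 fold changes were -0.16 and -0.08.

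**Figure D5:**
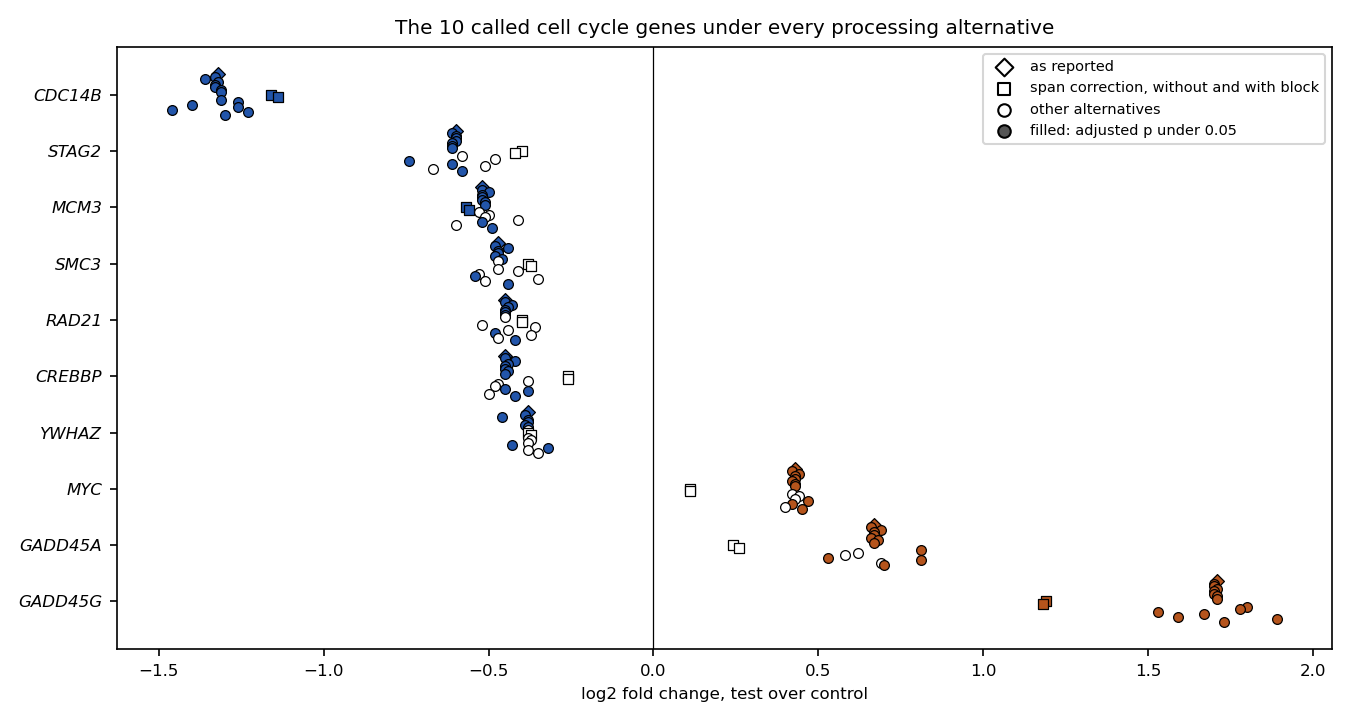
Log2 fold change of test over control (horizontal axis) of the 10 called cell cycle genes in the reported fit and in 16 alternatives, 1 symbol per fit, filled where the adjusted p was under 0.05. GADD45G and CDC14B are filled in all of them, MYC and GADD45A move to 0.11 and 0.24 after the span correction, and no gene changes sign.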

How the data were processed

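Values are whole-number counts of reads for each gene, deposited by the authors as part of 1 table of 6 samples. Another 6 per-sample columns of that table were not used. The submitters' processing notes name cutadapt 1.9.3, HISAT2 and Cuffdiff, and the rat build rn6, without roles. The counting tool, strand setting and annotation release are not given in the sources used here. Per the labels, RNA was depleted of ribosomal RNA before stranded libraries were made.

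Counts were tested with edgeR 4.0.16 in R 4.3.3 (quasi-likelihood, two-sided, TMM, filterByExpr with minimum count 10 and minimum total count 15), with no covariate, and adjusted by Benjamini-Hochberg over all 12740 genes tested. Standard errors are the absolute log2 fold change over the square root of F. The tests were checked on simulated counts. DESeq2 1.42.0 and limma 3.58.1 served as alternatives. Spans are lengths of RefSeq gene records (assembly mOryCun1.1) matched by gene number, found for all 82 tested members and for 8880 genes in the corrected fit, which removed a lowess curve (fraction 0.5) of each library against log2 span.

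The members, role lists and other lists were chosen with earlier results of these data known. Named are all called members, the 3 per role with the smallest p, a fixed set of central genes, and, of the proliferation list, the 4 called genes with the smallest p. The other genes named were chosen after their values were seen. Of the fixed set, CCND1, CCNE1, CDKN1A, E2F1, CCNA2, CCNB1 and CDC20 were not analysed here, nor was MKI67. One fixed gene and 1 list of genes outside the pathway are not reported here.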

Additional observations from a re-analysis of the deposited data

How the results depend on the processing

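GADD45G and CDC14B were called in the reported fit and in all 16 alternatives. The whole table gave 1655 calls, and from 446 to 2163 when 1 library was left out. Over the same 6 fits from 1 to 4 cell cycle genes were called higher and from 1 to 7 lower, in place of 3 and 7, and their median log2 fold change ran from -0.19 to -0.11, in place of -0.17. In these fits 1.22% to 8.54% of the tested cell cycle genes were called lower, where 1.53% to 7.48% of all tested genes were. The whole table gave 595, 471 and 446 calls without test replicates 1 to 3 and 710 without control replicate 3. A mean CPM of at least 5 gave 11 lower genes (14.5%, where 8.72% of all tested genes were called lower). The DESeq2 Wald test gave 13 (15.9%, where 8.98% of all tested genes were). The span correction gave 1 higher and 3 lower genes (3.66% lower, where 4.83% of all genes in that fit were) with a median of -0.09. It gave 888 calls among the 8880 genes with a span. Genes with a span, uncorrected, gave 1198 calls, an alternative chosen after the data were seen. Only 69.7% of tested genes have a span, so the correction is void for the whole table, while all 82 tested cell cycle genes have one.

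The labels do not say whether the replicate numbers pair the samples, and 3 libraries per group cannot settle it. Deviations from the group means correlated at 0.08, -0.018 and 0.023 between same-numbered libraries, and at -0.094 to 0.069 between the others. With the replicate block, 1681 genes were called, 4 cell cycle genes higher and 6 lower (7.32%, where 6.05% of all tested genes were), with a median of -0.16. SMC3, RAD21 and YWHAZ were not called in this fit (adjusted p = 0.0548, 0.0595 and 0.065), and BUB1, MCM4 and CDK4 were (0.0232, 0.0452 and 0.0262). With the replicate block and the span correction together 927 genes were called, 1 cell cycle gene higher and 4 lower, with a median of -0.11. That is 4.88% lower, where 4.9% of all genes in that fit were. Genes that were not called changed sign in places. ATM had 0.05 with the span correction and 0.06 with the block added, CDK2 had -0.00 in both, and when 1 library was left out PLK1 ran from -0.27 to 0.16 (0.03 without test replicate 2), CDC25B from -0.38 to 0.18, MCM2 from -0.42 to 0.05, PCNA from -0.19 to 0.01 and CDKN2C from -0.23 to 0.04. Over the 34 named cell cycle genes, 452 of 543 alternative values kept their direction and side of the threshold, 52 lost the call, 29 gained one and 10 changed sign. The causes were not tested. The low genes CCNE2, CDC25C and PKMYT1 had wide standard errors of 0.51, 0.65 and 0.68. A log2 fold change as small as that of MYC (0.43) would lie within 1 standard error in them.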
